A study of Arabidopsis thaliana with 11 samples.

Results

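LBD16 (locus AT2G42430) and GH3.3 (AT2G23170) are auxin-responsive genes known from the start of lateral roots, and they were chosen as the probe sets whose annotated gene symbol is LBD16 or GH3.3. Each gene had 1 probe set, 265856_at for LBD16 and 245076_at for GH3.3, so the account covers 2 of the 13350 genes that had a probe set naming exactly 1 gene, among 22746 probe sets tested. Expression was measured on 11 single-colour Affymetrix arrays carrying biotin-labelled material from root cells of Arabidopsis thaliana, released by enzyme digestion of the wall and collected by fluorescence-activated sorting. The groups were pericycle cells of line J2731 from salt-treated seedlings (n = 3), pericycle cells of J2731 from seedlings without salt (n = 2), cortex cells of line J1551 from salt-treated seedlings (n = 3) and cortex cells of J1551 from seedlings without salt (n = 3). All seedlings were 7 days old at harvest and grew in quarter-strength MS medium with sucrose and vitamins. For the salt groups, NaCl was added for the last 2 days after 5 days without it, first at 25 mM (plus 0.22 mM CaCl2) and then at 50 mM (plus 0.375 mM CaCl2). The plants of a tank were pooled into a biological sample, so the replicates are tanks. Cell type and line changed together and cannot be told apart.

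The pericycle surrounds the vascular tissue of the root, and lateral roots begin when a few of its cells, the founder cells, respond to auxin and divide. Auxin acts by removing Aux/IAA repressors from auxin response factors, and LBD16 is a direct target of those factors. It encodes a transcription factor with a LATERAL ORGAN BOUNDARIES domain that acts in founder cells before their first asymmetric division. GH3.3 encodes an enzyme that joins indole-3-acetic acid, the main natural auxin, to amino acids. Its transcript rises soon after auxin is applied, and the conjugation lowers the pool of free auxin. The sort collected pericycle cells as a whole and did not separate founder cells from the others.

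Values are the deposited log2 expression values, on which a difference of 1 is a 2-fold change. Array medians lay between 3.41 and 3.58. Levels under 2.81, the 40th percentile of the means of probe sets, are called dim below. No detection calls were used, so folds that rest on a dim group can understate the change. Arrays of a group correlated at 0.987 to 0.994 in cortex and at 0.917 to 0.966 in pericycle. Pericycle salt replicate 1 was the array least like its group, at 0.917 and 0.919 to the others, which correlated at 0.966 with each other. Some of the values of GH3.3, LBD29, CR4, AT1G14130, EXPA7 and EXPA18 that moved without it are given with and without it, and others that moved are not given.

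LBD16 was high in every pericycle array and dim in every cortex array. In salt-treated pericycle cells it had log2 values of 6.04, 7.07 and 6.20 (mean 6.44 ± 0.556, SD, n = 3). In pericycle cells without salt it had 6.37 and 5.92 (6.14 ± 0.324, n = 2). In salt-treated cortex cells it had 1.93, 2.00 and 2.26 (2.06 ± 0.173, n = 3), and in cortex cells without salt 2.47, 2.24 and 2.06 (2.26 ± 0.204, n = 3). The lowest of the 5 pericycle arrays lay 3.44 above the highest of the 6 cortex arrays, so the cell types did not overlap in either condition. From high to low the group means ran pericycle with salt, pericycle without salt, cortex without salt and cortex with salt. Only the step between the cell types exceeded the spread within groups. The neighbours within a cell type overlapped.

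GH3.3 was also highest in pericycle cells, with a wider spread there and with cortex groups that did not overlap. In salt-treated pericycle cells it had log2 values of 6.05, 3.26 and 3.95 (4.42 ± 1.451, SD, n = 3). In pericycle cells without salt it had 4.50 and 4.20 (4.35 ± 0.21, n = 2). Both of these values lie inside the range of the salt-treated pericycle arrays. In salt-treated cortex cells GH3.3 had 1.98, 2.16 and 1.79 (1.97 ± 0.186, n = 3), and all 3 were dim. In cortex cells without salt it had 3.59, 3.09 and 3.17 (3.28 ± 0.267, n = 3), above the dim limit. The 3 cortex arrays with salt all lay below the 3 without it. Of the 5 pericycle arrays, 4 lay above every cortex array. The exception was pericycle salt replicate 2, at 3.26, which was 0.32 below the highest cortex array, cortex control replicate 1. The group means had the same order as for LBD16 with all 11 arrays, but the pericycle groups overlapped, and without pericycle salt replicate 1 the salt-treated mean was 3.61, below the untreated 4.35.

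**Figure D1:**
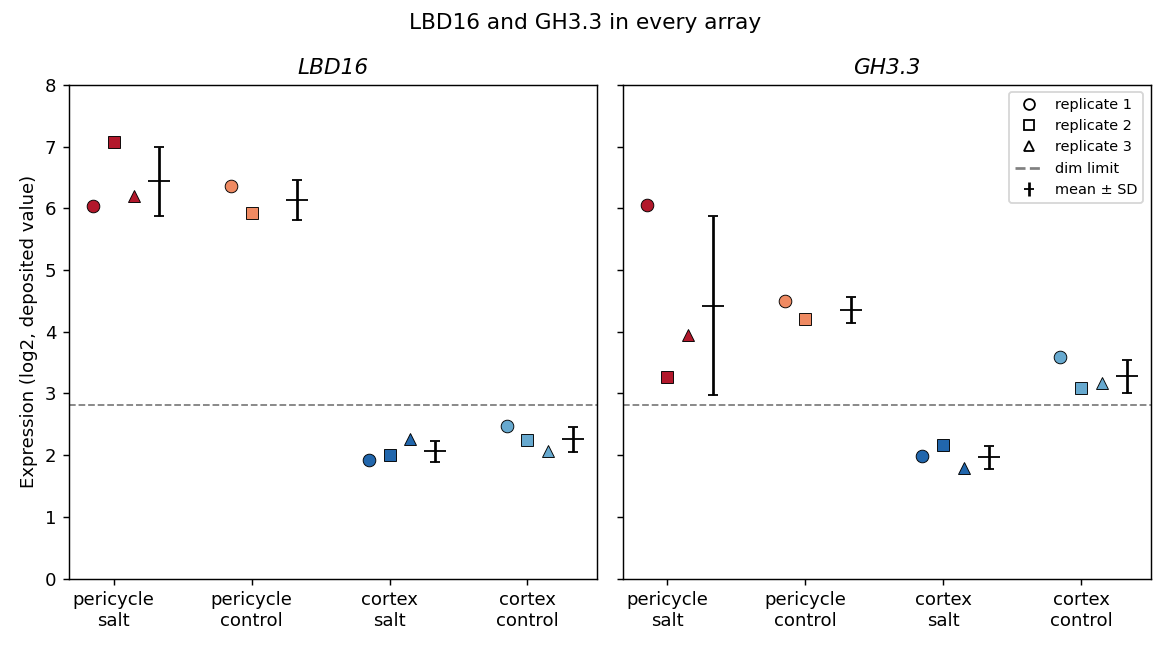
Log2 expression of LBD16 (left) and GH3.3 (right) in each of the 11 arrays, by group. Points are arrays with a shape per replicate number, bars beside them are the mean ± SD, and the dashed line is the dim limit of 2.81. LBD16 lies between 5.92 and 7.07 in pericycle and between 1.93 and 2.47 in cortex, and GH3.3 spans 3.26 to 6.05 in salt-treated pericycle cells.

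The first comparison set pericycle against cortex cells. LBD16 was 14.8-fold higher in pericycle than in cortex cells without salt, a log2 difference of 3.88 ± 0.302 (SE; 95% interval 3.21 to 4.56; n = 2 and 3; limma adjusted p = 4.93e-05). Under salt it was 20.7-fold higher in pericycle than in cortex cells, a log2 difference of 4.37 ± 0.27 (95% interval 3.77 to 4.97; n = 3 each; limma adjusted p = 9.03e-06). Among all 22746 probe sets this was the 69th largest positive difference without salt and the 49th largest under salt. Because cortex values of LBD16 were dim, these folds may be too small.

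GH3.3 was 5.45-fold higher in pericycle than in cortex cells under salt, a log2 difference of 2.45 ± 0.56 (SE; 95% interval 1.20 to 3.69; n = 3 each; limma adjusted p = 0.0135). It was the 489th largest positive difference under salt, and the cortex side of it was dim. Without salt the log2 difference was 1.07 ± 0.626, and it did not pass (95% interval -0.33 to 2.47; n = 2 and 3; limma adjusted p = 0.327). Both pericycle arrays without salt nevertheless lay above the 3 cortex arrays without salt. Such separation was common: 22.1% of all probe sets had both pericycle arrays above all 3 cortex arrays without salt, and 15% had the 3 pericycle arrays above the 3 cortex arrays under salt. Of the 2 genes, LBD16 passed upward in both conditions, as did 3.98% of all probe sets. The shares of probe sets called higher in pericycle were 6.71% without salt and 7.76% under salt, and in these comparisons 1 and both of the genes were called higher.

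As a check that uses no model of the spread, cell type labels were permuted within each condition over all 11 arrays. Averaged over both conditions, the pericycle minus cortex log2 difference was 4.13 for LBD16 and 1.76 for GH3.3. Each had a two-sided exact permutation p of 0.005, which is the smallest that the 200 arrangements can give, and the Benjamini-Hochberg adjusted value over both genes was 0.005 as well. LBD16 was higher in 5 of 5 pericycle arrays than in any cortex array, and GH3.3 in 4 of 5. Over all probe sets, 6.12% had all 5 pericycle arrays above all 6 cortex arrays, a share that covers LBD16 and not GH3.3. The share of all probe sets that reach the smallest permutation p, as both genes did, was not determined. Single comparisons of 3 against 3 or 3 against 2 arrays cannot go below an exact permutation p of 0.1.

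**Figure D2:**
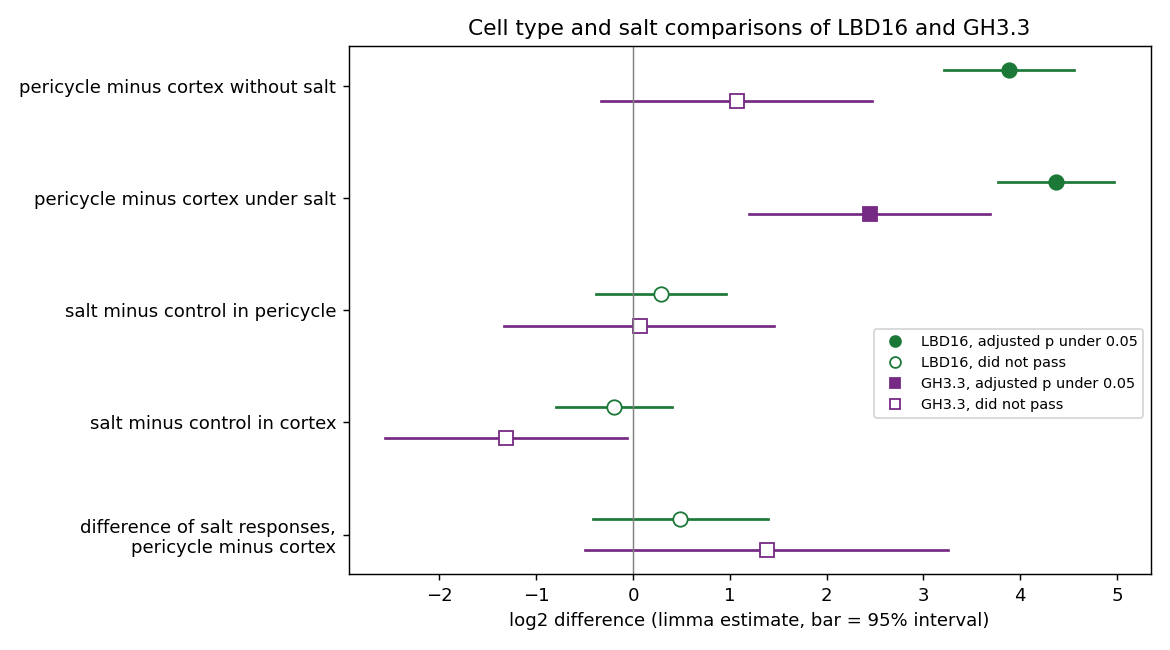
Log2 differences of LBD16 (green circles) and GH3.3 (purple squares) in the 5 comparisons, from limma with all 11 arrays; bars are 95% intervals and filled symbols have an adjusted p under 0.05. The LBD16 intervals for pericycle minus cortex run from 3.21 to 4.97 over both conditions, and every interval for salt reaches across or close to 0.

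The sorted cells could be checked against marker genes only in part. None of the 4 pericycle markers listed (PHO1, SKOR, GATA23 and AHP6) had a probe set with a named gene here, so the pericycle identity rests on the line. The 3 cortex markers were all measured, with mean log2 levels of 3.15 in pericycle with salt, 3.37 in pericycle without salt, 2.75 in cortex with salt and 2.86 in cortex without salt. Their summed log2 levels ran from 9.07 to 9.70, 9.38 to 10.82, 7.90 to 8.90 and 8.16 to 8.81 in these 4 groups, and AT1G62500 and AT1G62510 were dim in each group mean. Their summed levels were thus lower in the sorted cortex cells than in pericycle cells in both conditions, though none of the 3 passed between the cell types. AT1G09750 was 0.82 higher in pericycle without salt and 1.04 higher under salt. The cortex identity, too, therefore rests on the line. OPS, a gene of the phloem, moved with LBD16 and GH3.3 between the cell types and was the only phloem marker of 3 with a named probe set. It was higher in pericycle than in cortex cells by 1.67 ± 0.363 without salt (SE; limma adjusted p = 0.0122; 0.0797 without pericycle control replicate 1) and by 2.82 ± 0.325 under salt (limma adjusted p = 2.69e-04). The part of phloem cells in the LBD16 and GH3.3 differences was not tested. Of the 5 root hair markers listed, EXPA7 and EXPA18, which encode expansins of the cell wall, had a named probe set. Their summed log2 levels ran from 5.14 to 8.73 in pericycle with salt, 7.22 to 8.67 in pericycle without salt, 5.64 to 7.80 in cortex with salt and 9.58 to 10.61 in cortex without salt. Without salt, pericycle minus cortex was -1.76 ± 0.534 for EXPA7 and did not pass (limma adjusted p = 0.0533). It passed without pericycle salt replicate 1 (limma adjusted p = 0.0363) and with the untreated arrays alone (0.0295). EXPA18 overlapped between the untreated cell types, with a difference of -0.26 ± 0.566 that did not pass (limma adjusted p = 0.839). Under salt the differences were -0.72 for EXPA7 and 0.27 for EXPA18, and neither passed (limma adjusted p = 0.368 and 0.785). Without pericycle salt replicate 1 they were -0.46 and 0.64. The salt difference of EXPA7 in pericycle was -0.22, and 0.04 without that replicate. In sorted pools, a smaller share of cells that express a gene and less RNA per cell cannot be told apart.

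The next comparison asked whether salt changed these genes in pericycle cells, and neither gene passed. LBD16 differed by 0.29 ± 0.302 between salt-treated and untreated pericycle cells (SE; 95% interval -0.38 to 0.96; n = 3 and 2; limma adjusted p = 0.724). The interval allows anything between 0.768 and 1.95 times the untreated level. The difference turned to -0.03 without pericycle salt replicate 2, the array with the highest LBD16 value. GH3.3 differed by 0.07 ± 0.626 (95% interval -1.33 to 1.46; n = 3 and 2; limma adjusted p = 0.98), which allows 0.398 to 2.75 times the untreated level. The median difference of all probe sets was -0.001, and 1.99% of them were called in either direction.

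The GH3.3 value in pericycle depends on pericycle salt replicate 1. GH3.3 was 2.10 higher there than in the higher of the other arrays of its group, a gap reached by 224 probe sets, 0.985% of all. Without that array the salt difference in pericycle turned to -0.75 (limma adjusted p = 0.164), with the remaining salt-treated arrays at 3.26 and 3.95 and the untreated ones at 4.50 and 4.20. It was -0.57 with array weights, which gave that array the lowest weight of the 11, 0.171. It was -0.08 without pericycle control replicate 2. LBD16 did not stand apart on that array, where its value of 6.04 was close to the 6.20 of replicate 3.

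In cortex cells GH3.3 was lower with salt in every array, at 1.79 to 2.16 with salt against 3.09 to 3.59 without it. The log2 difference was -1.31 ± 0.56 (SE; 95% interval -2.56 to -0.06; n = 3 each; unadjusted p = 0.0418, limma adjusted p = 0.305), and it did not pass. The exact permutation p was 0.1, the smallest that 3 against 3 arrays allow. Fitted on the 6 cortex arrays alone, with no pericycle array in the estimate of spread, the same difference of -1.31 had a standard error of 0.166 and passed (limma adjusted p = 0.00107). It also passed with array weights (-1.25, limma adjusted p = 0.00217) and without pericycle salt replicate 1 (limma adjusted p = 0.00732). Both root hair markers were also lower with salt in every cortex array, at 2.80 to 4.05 against 4.38 to 5.08 for EXPA7 and at 2.84 to 3.75 against 4.63 to 5.61 for EXPA18. Their differences of -1.26 ± 0.478 and -1.85 ± 0.506 did not pass with all 11 arrays (limma adjusted p = 0.228 and 0.0821) and passed on the cortex arrays alone (0.0239 and 0.0026). EXPA18 also passed without pericycle salt replicate 1 (limma adjusted p = 0.0419). The part of root hair cells in the cortex values of GH3.3 and of the GH3 genes described below was not tested. Of all probe sets, 4.16% were called in cortex and 14.8% had all salt arrays below all untreated arrays. Without salt, likewise, the pericycle minus cortex difference of 1.07 passed without pericycle salt replicate 1 (limma adjusted p = 0.0123) and in the fit of the untreated arrays alone (limma adjusted p = 0.0297). That array is not part of either difference and entered these tests only through the shared estimate of spread. Between cell types without salt, 3387 probe sets were called with all 11 arrays. Without pericycle salt replicate 1 it was 5007, and with the untreated arrays alone 3510. Leaving out that array raised the number of called probe sets in every comparison.

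LBD16 differed by -0.20 ± 0.27 between salt-treated and untreated cortex cells (SE; 95% interval -0.80 to 0.40; limma adjusted p = 0.905). Both cortex groups were dim, so a change there could not be measured well. The salt responses of pericycle and cortex differed by 0.49 ± 0.405 for LBD16 (limma adjusted p = 0.71) and by 1.38 ± 0.84 for GH3.3 (95% interval -0.50 to 3.25; limma adjusted p = 0.585). Neither passed, against 0.835% of all probe sets, and the GH3.3 value was 0.56 without pericycle salt replicate 1. The comparisons share arrays, so their values are not independent of each other.

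**Figure D3:**
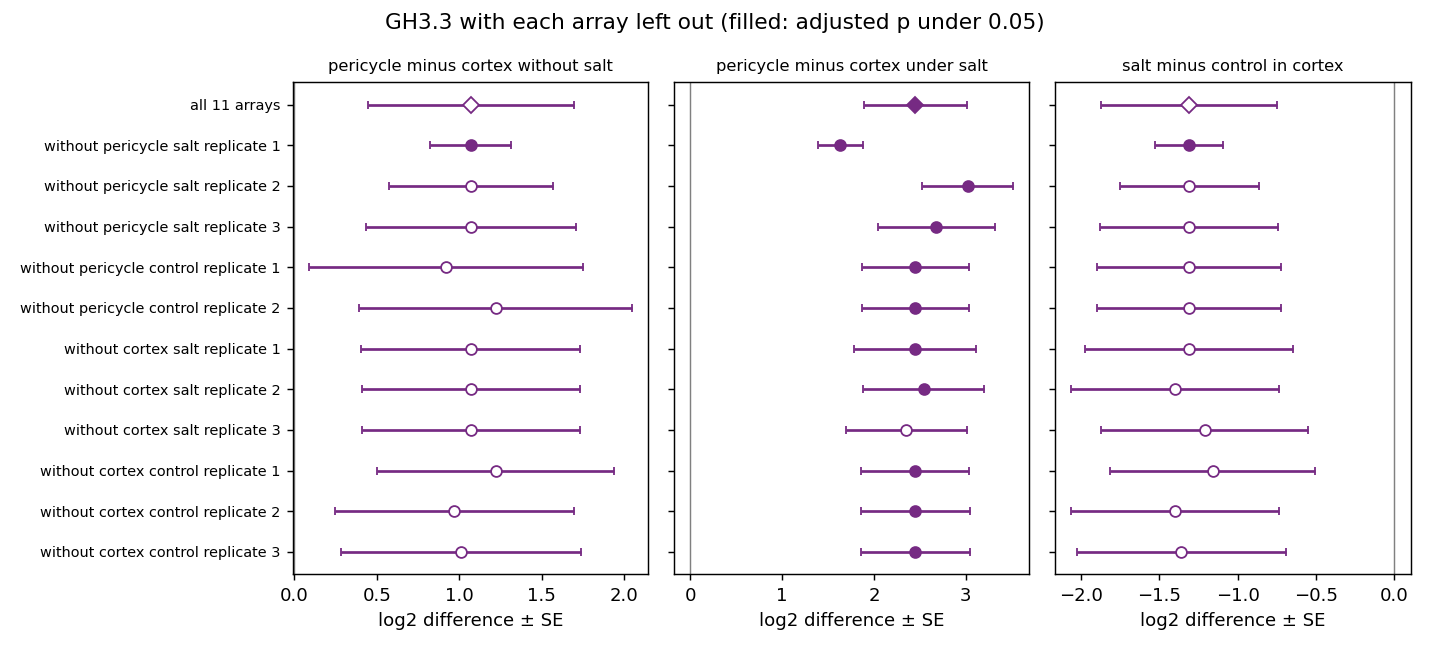
Log2 differences of GH3.3 ± SE in 3 comparisons, with all 11 arrays (diamond) and with each array left out in turn (circles); filled symbols have an adjusted p under 0.05. Leaving out pericycle salt replicate 1 narrows every bar, fills the symbols for pericycle minus cortex without salt and for salt in cortex, and moves the difference under salt to 1.63.

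The GH3.3 difference between cell types under salt was 1.63 without pericycle salt replicate 1 (limma adjusted p = 0.0015), against 2.45 with it, and it was 3.02 without pericycle salt replicate 2. It missed the threshold without cortex salt replicate 3 (2.35, limma adjusted p = 0.0548) and when only the 6 salt arrays were fitted (2.45, limma adjusted p = 0.0626). LBD16 passed in both cell type comparisons whichever array was left out, with log2 differences of 3.66 to 4.11 without salt and 4.06 to 4.57 under salt.

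The other measured genes of the auxin and lateral root pathway numbered 17, from 11 lists of which 5 had no named probe set (auxin response factors, auxin receptors, auxin transport, SAUR genes and cell cycle genes). Between the cell types, 2 of the 17 were higher and 2 lower in pericycle without salt, and 2 were higher and 2 lower under salt. Their median log2 differences were 0.11 and 0.08, against 0.024 and 0.014 over all probe sets. Of all probe sets, 8.18% were called lower in pericycle without salt and 10.1% under salt. With salt, none of the 17 rose and 2 fell in each cell type, with medians of -0.07 in pericycle and -0.05 in cortex. Called falls with salt made up 0.95% of all probe sets in pericycle and 2.73% in cortex.

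Among family members of LBD16, only LBD29 had a named probe set. LBD29 encodes another LATERAL ORGAN BOUNDARIES transcription factor that acts downstream of auxin in lateral root formation. It was dim in all 11 arrays, at 1.56 to 2.13 in pericycle with salt, 2.13 and 2.33 in pericycle without salt, 1.50 to 1.75 in cortex with salt and 1.56 to 1.79 in cortex without salt. Its pericycle minus cortex difference of 0.56 ± 0.198 without salt did not pass (limma adjusted p = 0.0905), and it passed without pericycle salt replicate 1 (limma adjusted p = 0.0328). At these levels the array cannot show whether LBD29 shared the LBD16 pattern.

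The GH3 list had 6 measured genes with GH3.3 among them, and they did not move as 1 block. WES1, which is GH3.5 and also encodes an enzyme that conjugates auxin, had 7.21, 7.27 and 7.21 in pericycle with salt, 7.09 and 6.75 in pericycle without salt, 4.44, 5.14 and 5.04 in cortex with salt, and 5.78, 6.94 and 6.54 in cortex without salt. As for GH3.3, cortex cells with salt were the lowest group and did not overlap any other group. The share of all probe sets with this pattern was not determined. Of all probe sets, 14.8% had the salt-treated cortex arrays below the untreated ones, and 15% had them below the salt-treated pericycle arrays. WES1 fell by 1.55 with salt in cortex (SE 0.292; limma adjusted p = 0.0164), and this call was lost without cortex salt replicate 1 or 3 or without cortex control replicate 2 or 3 (limma adjusted p = 0.0591 to 0.0833). Under salt it was 2.36 ± 0.292 higher in pericycle than in cortex (limma adjusted p = 4.11e-04). Its salt responses differed by 1.86 ± 0.438 between pericycle and cortex, which did not pass (limma adjusted p = 0.0939).

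GH3.1 and AT1G23160, which the list holds by its locus code, went the other way between the cell types. GH3.1 was lower in pericycle than in cortex by a log2 difference of -1.51 ± 0.268 without salt (limma adjusted p = 0.00443) and -0.92 ± 0.24 under salt (limma adjusted p = 0.0248). The second of these calls was lost without pericycle salt replicate 2 or any 1 of the cortex salt arrays (limma adjusted p = 0.0616 to 0.0982) and with only the salt arrays fitted (limma adjusted p = 0.0564). AT1G23160 had 2.53, 2.77 and 2.84 in pericycle with salt and 4.38 and 5.38 in pericycle without salt. In cortex it had 4.81, 5.14 and 5.31 with salt and 6.67, 6.88 and 6.56 without salt. It fell with salt in both, by 2.16 in pericycle (SE 0.283; limma adjusted p = 0.00987) and by 1.62 in cortex (SE 0.253; limma adjusted p = 0.00634). The pericycle call was lost with array weights (limma adjusted p = 0.068). It was also lost with only the pericycle arrays fitted (limma adjusted p = 0.53), a fit that called no probe set at all.

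GH3.17 and GH3.9 did not pass in any comparison with all 11 arrays. GH3.17, whose enzyme also conjugates auxin, had 5.61 to 7.55 in pericycle with salt, 6.31 and 7.08 in pericycle without salt, 6.70 to 6.82 in cortex with salt and 7.88 to 8.33 in cortex without salt. Its salt difference in cortex of -1.26 ± 0.44 (unadjusted p = 0.0172, limma adjusted p = 0.184) resembled that of GH3.3 in size and in its lack of overlap. It too passed on the cortex arrays alone (limma adjusted p = 7.57e-04), a fit that called 4487 probe sets. GH3.17 also passed as lower in pericycle than in cortex, by a log2 difference of -1.34, when only the untreated arrays were fitted (limma adjusted p = 0.0336). GH3.9 had dim group means of 2.06 to 2.34. Counting GH3.3, the median of the 6 GH3 genes with salt was -1.28 in cortex, where 2 fell, and -0.04 in pericycle, where 1 fell, against 0.014 and -0.001 over all probe sets.

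**Figure D4:**
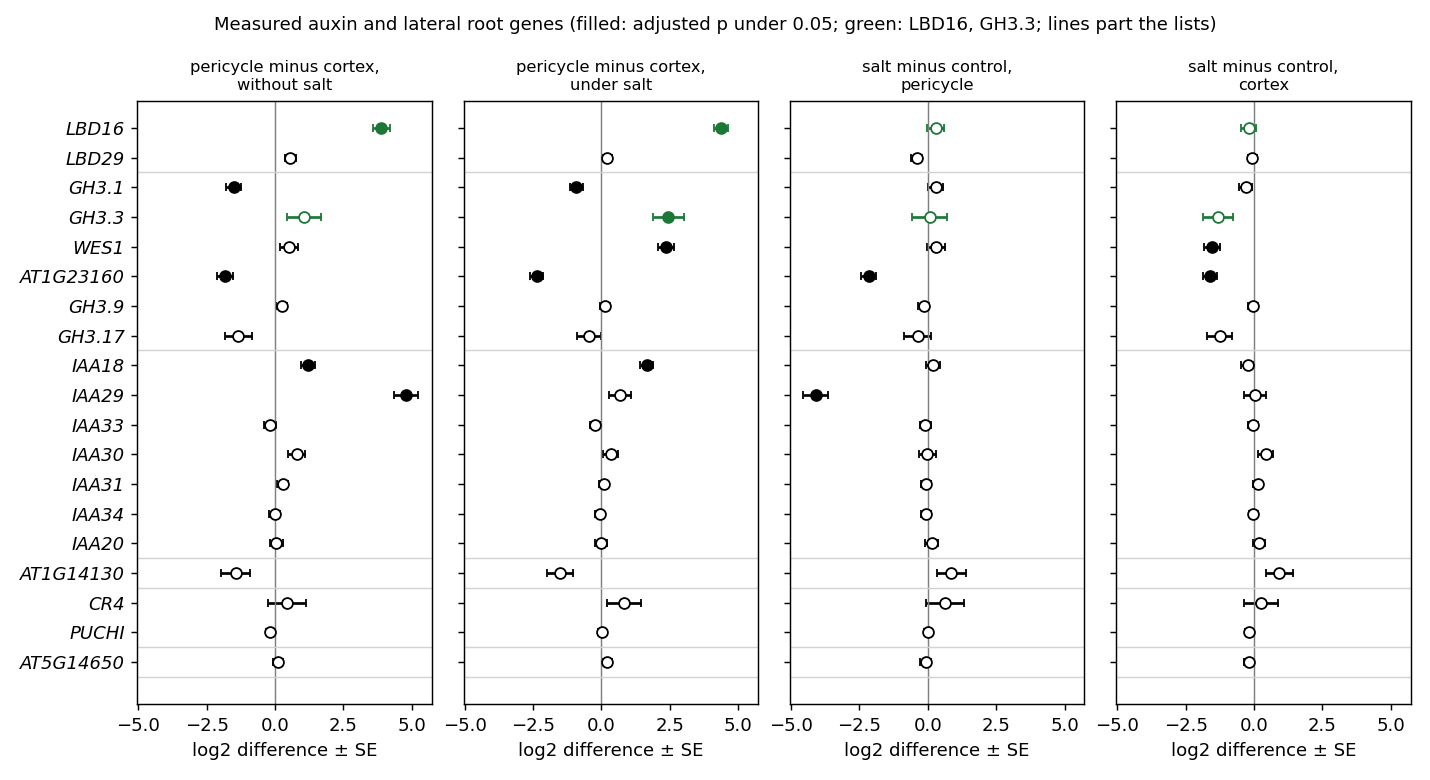
Log2 differences ± SE of the 19 measured auxin and lateral root genes in 4 comparisons, with LBD16 and GH3.3 in green, filled symbols for an adjusted p under 0.05 and grey lines between the lists. LBD16 stands at 3.88 and 4.37 in the cell type panels, and in the cortex salt panel GH3.3 (-1.31), WES1 (-1.55), AT1G23160 (-1.62) and GH3.17 (-1.26) lie to the left of 0.

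Of the 7 measured Aux/IAA genes, whose proteins repress auxin response factors, IAA18 and IAA29 were higher in pericycle without salt and IAA18 under salt. IAA18 was higher by 1.20 ± 0.256 without salt (limma adjusted p = 0.0109) and by 1.65 ± 0.229 under salt (limma adjusted p = 8.08e-04), with 4.37 to 5.05 in pericycle with salt, 4.58 and 4.60 in pericycle without salt, 3.00 to 3.29 in cortex with salt and 3.00 to 3.60 in cortex without salt. Like LBD16 it had every pericycle array above every cortex array and did not pass for salt in either cell type. IAA29 was higher in pericycle without salt by 4.78 ± 0.45 (limma adjusted p = 1.28e-04), and its cortex means were dim. Its salt responses differed by -4.11 ± 0.604 between pericycle and cortex (limma adjusted p = 0.0169, and 0.0642 without cortex salt replicate 3). It was the only 1 of the 17 genes called there, against 0.835% of all probe sets. In pericycle IAA29 fell with salt to a mean of 3.01, against 7.10 without salt (limma adjusted p = 0.006, and 0.0518 with array weights). With only the pericycle arrays fitted its limma adjusted p was 0.53, in a fit that called no probe set at all. LBD16 means were 6.44 with salt and 6.14 without salt in the same groups. IAA30 had group means of 4.60 to 5.39, and IAA20, IAA31, IAA33 and IAA34 were dim in every group mean. None of these 5 passed in any comparison.

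PUCHI, an AP2-type transcription factor gene of the lateral root primordium, was dim, with group means of 1.97 to 2.15. CR4, also named ACR4, encodes a receptor kinase that acts in founder cell divisions. It had group means of 4.63 ± 1.51 in pericycle with salt, 4.01 ± 0.834 in pericycle without salt, 3.80 ± 0.118 in cortex with salt and 3.55 ± 0.343 in cortex without salt (SD, n = 3, 2, 3 and 3). It did not pass in any comparison. CR4 had 6.37 on pericycle salt replicate 1, against 3.68 and 3.83 on the others of that group. Without that array the salt-treated mean was 3.76, the salt difference in pericycle turned to -0.25 from 0.62, and the pericycle minus cortex difference under salt was -0.05 in place of 0.83. The list genes AT1G14130 and AT5G14650 did not pass either with all 11 arrays. AT1G14130 was the only one of auxin synthesis and breakdown with a named probe set, with means of 4.18, 3.32, 5.69 and 4.76 in the same order of groups. It had 2.86 on pericycle salt replicate 1, against 4.98 and 4.72 on the others. Without that array it was higher with salt by 1.53 in pericycle (limma adjusted p = 0.0233, against 0.86 and 0.494 with it) and by 0.93 in cortex (0.041, against 0.433). Pericycle minus cortex was then -1.44 without salt (limma adjusted p = 0.00362, against 0.109) and -0.85 under salt (0.0491, against -1.51 and 0.0556). AT5G14650 was dim in every group mean.

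The genes whose pattern was closest to each of these genes were found by the root mean square difference of log2 values over the 11 arrays, after each gene was centred on its own mean. For LBD16 the 5 closest of the 13512 other probe sets with exactly 1 gene were RALFL32 (0.284), AT3G21770 (0.356), WNK9 (0.371), AT2G03240 (0.406) and AT2G28660 (0.418), against a median of 2.095 over all of them. RALFL32 encodes a small secreted peptide of the RALF family and WNK9 a protein kinase. RALFL32 had means of 7.36 in pericycle with salt, 7.31 in pericycle without salt, 3.42 in cortex with salt and 3.71 in cortex without salt. These genes were picked for their likeness, so their cell type differences are a description.

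For GH3.3 the closest were AT5G64870 (0.367), AT5G59540 (0.400), AT3G09010 (0.445), AT2G42760 (0.448) and AT4G29700 (0.465), against a median of 1.203. All 5 had their highest value of the 11 arrays on pericycle salt replicate 1, as GH3.3 did and as 22.3% of all probe sets did. They were picked for likeness to GH3.3 over these same arrays, so the shared peak follows largely from the choice and is a description. AT5G59540 had means of 4.79 in pericycle with salt, 4.77 in pericycle without salt, 1.99 in cortex with salt and 3.55 in cortex without salt, close to the 4.42, 4.35, 1.97 and 3.28 of GH3.3. LBD16 and GH3.3 had a root mean square difference of 1.513 from each other, under the median of 2.095 from LBD16 and over the median of 1.203 from GH3.3. GH3.3 was 485th in the order from LBD16, and LBD16 was 11107th in the order from GH3.3.

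**Figure D5:**
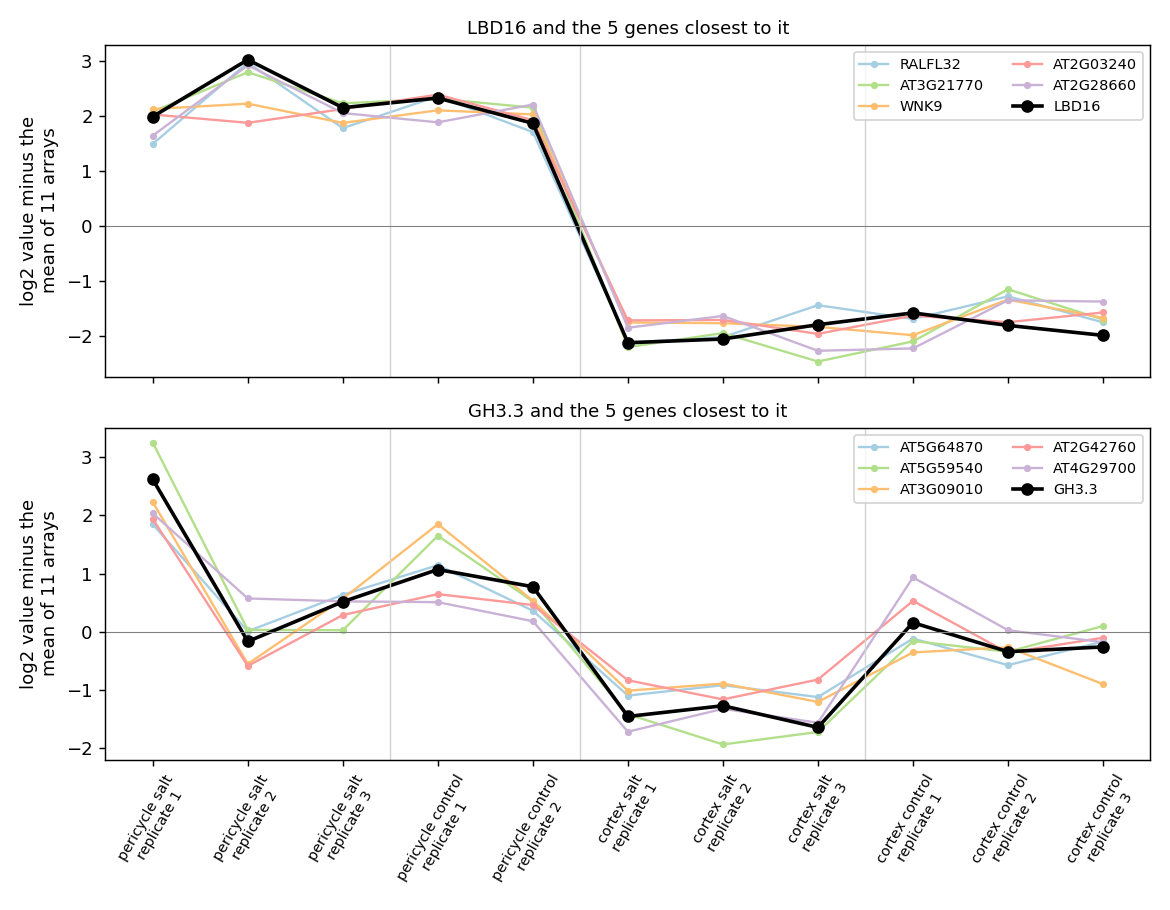
Log2 values centred on the mean of 11 arrays for LBD16 (top) and GH3.3 (bottom), each in black with the 5 genes closest to it in colour; grey lines part the groups. LBD16 and its closest genes form a step between pericycle and cortex, and GH3.3 and its closest genes peak on pericycle salt replicate 1 and are lowest in cortex with salt.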

How the data were processed

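The authors deposited log2 expression values for 22810 probe sets per array. Per the submitters' processing notes the tools were RMA and limma, with no version or role named. That the deposited values are log2 was judged from their range. They were used without further normalization, and 64 array control probe sets were left out. Per the probe table used here, 13513 probe sets had exactly 1 gene and 503 had several, and 8730 of the tested probe sets were absent from that table. By gene ID, 13436 were matched to RefSeq symbols (TAIR10.1).

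All 11 arrays were fitted in limma 3.58.1 (R 4.3.3; lmFit, contrasts.fit, eBayes) with a mean per group, giving 7 residual and 2.96 prior degrees of freedom. P-values are two-sided and Benjamini-Hochberg adjusted over all 22746 probe sets, with a threshold of 0.05. Arrays give no read depth, and their number limits the precision. The procedure was run on simulated data with known differences. Named genes are LBD16 and GH3.3, list genes that passed in any comparison or had the highest means in a list where none passed, other measured list genes given as values, and the 5 closest patterns; OPS, EXPA7 and EXPA18 are markers. These genes, the lists and the tests were chosen with earlier results of these data known. Alternatives were a fit of the compared groups alone, an intensity trend, robust eBayes, array weights, quantile normalization, no dim probe sets, a replicate block and each array left out. Replicate numbers were not used as pairs: same-numbered arrays of different groups had residuals that correlated at -0.151 to 0.107.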

Additional observations from a re-analysis of the deposited data

How the results depend on the processing

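Of 202 recomputed values for LBD16 and GH3.3, 191 kept their direction and their side of the threshold; 4 turned sign, 5 newly passed and 2 no longer passed. For GH3.3, array weights turned the salt difference in pericycle to -0.57 and gave -1.25 in cortex, which passed. Fits of the compared groups alone gave -1.31 for salt in cortex and 1.07 for pericycle minus cortex without salt, both now past the threshold, and 2.45 under salt, which was not. Without 1 array, GH3.3 ran from -0.75 to 0.65 for salt in pericycle (also -0.08 without pericycle control replicate 2), -1.40 to -1.16 for salt in cortex, 0.92 to 1.22 between cell types without salt and 1.63 to 3.02 under salt, and LBD16 from -0.03 to 0.52 for salt in pericycle. With 1 array left out, the exact permutation p was 0.01 to 0.02, against 0.005 with all. The smallest possible two-sided p is then 0.01 to 0.0167, depending on the array left out, so this test cannot show stability. Counts of called probe sets moved with the arrays and weights in the fit. For salt in pericycle, 453 were called, against 0 with the pericycle arrays alone (limma; 1502 at an unadjusted p under 0.05), 32 with array weights, 194 with the replicate block and 183 to 1124 without 1 array. For salt in cortex, 946 were called, against 4487 with the cortex arrays alone, 4775 with array weights and 362 to 1701 without 1 array. For the difference of responses, 190 were called, against 121 with the replicate block and 53 to 635 without 1 array. Between cell types under salt, 4066 were called, and 2461 to 5102 without 1 array. The cause of these shifts was not tested. The replicate block changed no call of LBD16 or GH3.3 (GH3.3 under salt 2.45, adjusted p = 0.0127 in limma). Values dim in cortex limit how well LBD16 folds are known. List genes that passed were recomputed under the same alternatives, and the others without pericycle salt replicate 1 and with the compared groups alone, choices made after seeing the data.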
